A study of Mus musculus with 6 samples.

Results

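The antioxidant, glutathione and selenoprotein genes of sorted kidney cells were described in *Trf1flox/flox* and *Trf1+/+* mice. They were chosen by symbol from the deposited table. The rule took the glutathione peroxidases (*Gpx*), peroxiredoxins (*Prdx*), superoxide dismutases (*Sod*), catalase (*Cat*), every symbol starting with *Txn*, *Glrx* or *Selen*, the glutathione enzymes *Gclc*, *Gclm*, *Gss* and *Gsr*, the heme oxygenases, *Srxn1*, *Mt1*, *Mt2*, *Nfe2l2* and *Keap1*. It found 58 of the 12125 genes listed, and 1 further matching row, a pseudogene symbol, was left out. All 58 passed the filter on low values, which asked for 10 or more normalized counts in 3 or more libraries, as did 9966 genes in all.

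There were 3 libraries of each genotype, each made from the RNA of 500 sorted kidney cells. Male and female mice of both genotypes received tamoxifen 3 times a week for 8 weeks, starting at an age of 6 to 8 weeks. Both genotypes carried *Col1a2-CreERT2*, a Cre recombinase that tamoxifen activates and that the *Col1a2* promoter drives in fibroblasts, and the KFP reporter, a red fluorescent protein that Cre switches on. They differed in *Terf1*, the gene of the telomere protein TRF1, which was floxed in *Trf1flox/flox* and intact in *Trf1+/+* mice. Cells were sorted with antibodies to CD29, an integrin, and to the reporter. The replicate numbers name libraries in their order of deposit and pair no mice.

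The cells that meet hydrogen peroxide and lipid peroxides dispose of them along a pair of parallel electron chains. In one chain glutathione, made by *Gclc*, *Gclm* and *Gss* and recycled by *Gsr*, feeds the glutathione peroxidases and glutaredoxins. In the other, thioredoxin reductases keep the thioredoxins reduced, and these feed the peroxiredoxins. The transcription factor NRF2, the product of *Nfe2l2*, is held down by KEAP1 and switches on many of these genes through antioxidant response elements in their promoters. Several of the enzymes are selenoproteins, in which a TGA codon inside the reading frame is read as selenocysteine in place of a stop. The proximal tubule of the kidney is known as the source of plasma glutathione peroxidase, the product of *Gpx3*.

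The data went against the labels at 2 points. The *Terf1* level, in normalized counts, was 0.891, 252.7 and 234.5 for the libraries labelled *Trf1+/+* and 110.0, 7.65 and 12.4 for those labelled *Trf1flox/flox*, so that the library labelled *Trf1+/+* replicate 1 had the lowest value of all. That library also stood apart from the rest. In it 34.4% of all tested genes were at 3 reads or fewer, against 2.48% to 20.0% in the other 5, its median value was 13.4 normalized counts, against 118.5 to 147.8, and 8967 genes were above 0, the fewest of the 6. Its very low values for single genes, given below, stand beside this. The *Terf1* log2 fold change of -1.04 was smaller than its standard error of 2.22. The labelled cell type was also not borne out by the markers. *Col1a2* lay between 0 and 1.78 normalized counts in the 6 libraries, only 3 of the 9 fibroblast markers were listed, and their sum lay between 1.66 and 105.4. The sum of 8 proximal tubule markers lay between 14443 and 105910, and that of 4 markers of the loop of Henle and distal tubule between 48094 and 135062. The values below are therefore those of the sorted cells, with no cell type implied. In such bulk RNA, fewer cells of a type and less RNA per cell cannot be told apart.

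The coding sequences of the glutathione peroxidases showed what sets the selenoproteins among these genes apart. Coding sequences of the GENCODE M21 annotation (GRCm38) were read for all 58 genes, and 16 of them held an in-frame TGA codon. The stretches around the selenocysteine codon of the 3 selenoprotein peroxidases, and the aligned stretch of *Gpx6*, are shown because *Gpx6* differs from them at this codon. The capitals mark the codon of the catalytic residue.
Gpx1: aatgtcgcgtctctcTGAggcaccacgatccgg
Gpx3: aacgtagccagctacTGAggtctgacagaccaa
Gpx4: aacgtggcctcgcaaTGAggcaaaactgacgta
Gpx6: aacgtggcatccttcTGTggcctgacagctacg
These codons lie in coding exons on the plus strand, at chr9:108339451-108339453 in *Gpx1*, chr11:54907256-54907258 in *Gpx3*, chr10:80054737-80054739 in *Gpx4* and chr13:21313777-21313779 in *Gpx6*. *Gpx6* has a cysteine codon there, and its coding sequence held no in-frame TGA. *Gpx8*, an endoplasmic reticulum peroxidase, held none either.

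The 3 thioredoxin reductases, which use the same device at the other end of the protein, are shown because the genes with the largest positive differences between genotypes were among them. The capitals mark the selenocysteine codon, which is the last codon but 1 before the stop codon that ends each line.
Txnrd1: ctccagtctggctgcTGAggttaa
Txnrd2: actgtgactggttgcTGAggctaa
Txnrd3: actcagaaaggctgcTGAggctag
They lie in coding exons, on the plus strand, at chr10:82896037-82896039, chr16:18477772-18477774 and chr6:89674789-89674791. The codon before each TGA is tgc, for cysteine, and the codon after it is ggt or ggc, for glycine.

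No antioxidant, glutathione or selenoprotein gene passed the test of a difference between *Trf1flox/flox* and *Trf1+/+* mice. With limma on log2(normalized count + 1), 0 of the 58 genes had an adjusted p under 0.05, and the smallest was 0.654, for *Txnrd3*. Over all 9966 tested genes the share was 0.0%, with a smallest adjusted p of 0.11. At an unadjusted p under 0.05 there was 1 gene of the 58 (1.72%), against 4.56% of all tested genes. With edgeR on the recovered reads 0 of the 58 and 0 of all genes passed, and at an unadjusted p under 0.05 there were 0 of the 58, against 196 of all genes (1.97%). With DESeq2 0 of the 58 passed, against 58 of the 9601 genes to which it gave an adjusted p (0.604%). It gave no p for *Srxn1*, *Selenoh* and *Selenbp2*, so these members of the 58 could not pass. At an unadjusted p under 0.05 DESeq2 gave 2 of the 58, *Txnrd1* and *Txnrd3* (3.45%), against 410 of all genes (4.27%). Each library held 10263382 to 12248797 reads on the listed genes.

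The differences between genotypes lay within 1 standard error for most of the 58 genes. Of the 58 genes, 23 had a positive and 35 a negative log2 fold change, with a median of -0.19, where all tested genes had a median of 0.20 and 55.9% were positive. Without the library labelled *Trf1+/+* replicate 1, the median of the 58 was 0.15 and 31 (53.4%) were positive, where all tested genes had a median of -0.03 and 48.9% were positive, so that the 58 genes then lay above all genes and not below. With the libraries scaled to the same upper quartile, 34 of the 58 (58.6%) were positive with a median of 0.10, against 63.9% and 0.44 for all tested genes. The direction of the median depended on 1 library and on the scaling, and its place beside all genes on that library. The log2 fold change exceeded its own standard error for 10 of the 58 genes (17.2%), against 34.3% of all tested genes. These shares were not matched for level. A mean of 500 normalized counts or more was reached by 42 of the 58 genes, against 2522 of the 9966 tested genes, so nothing particular to the 58 is read from them. The groups did not overlap, with all 3 *Trf1flox/flox* libraries above all 3 *Trf1+/+* libraries, for 2 genes, *Txnrd1* and *Txnrd3* (3.45%, against 5.35% of all tested genes). They lay all below for 2 genes, *Glrx5* and *Txnl4b* (3.45%, against 3.33%). These shares were near or below those of all tested genes. *Txnrd3* passed the filter only through its *Trf1flox/flox* libraries, so its groups were bound to be apart.

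**Figure D1:**
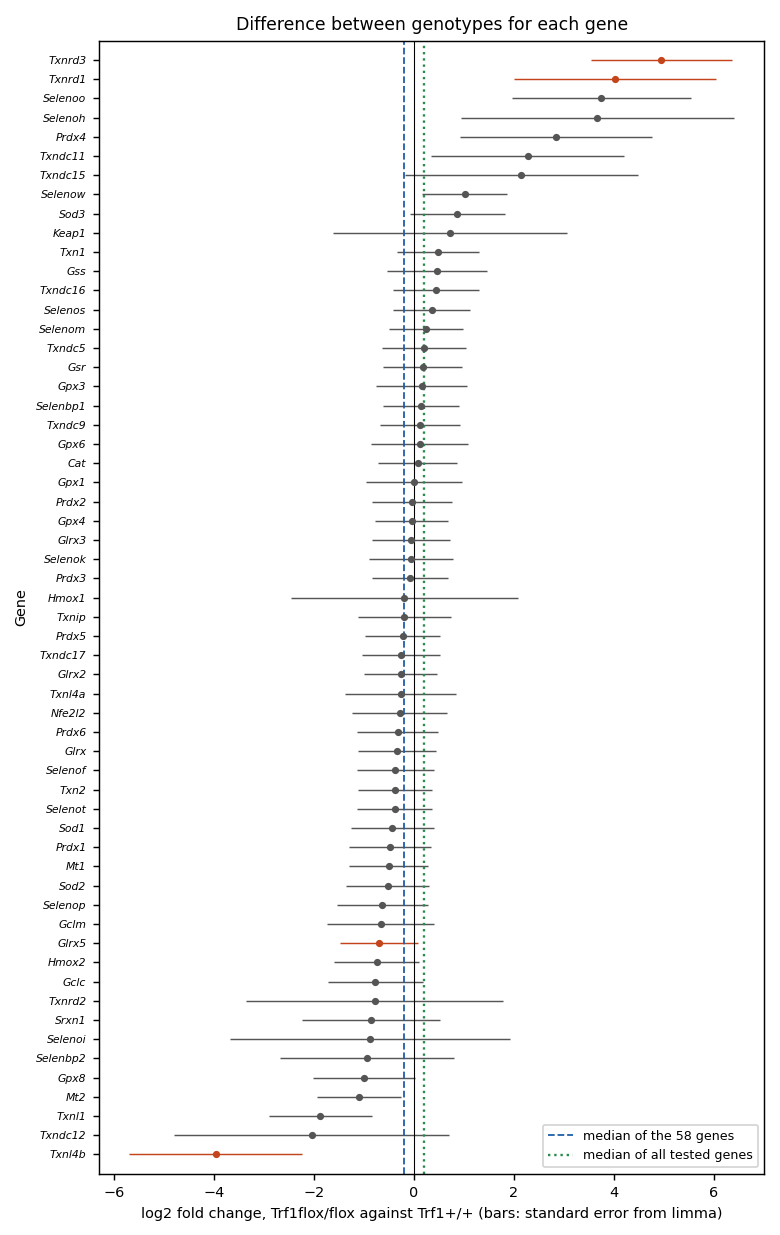
The log2 fold change between *Trf1flox/flox* and *Trf1+/+* libraries (x axis, on the log2(normalized count + 1) scale) is drawn for each of the 58 genes (y axis), with the standard error from limma as a bar, in orange for the 4 genes whose groups did not overlap. Most genes sit within 1 standard error of 0, and the dashed and dotted lines mark the medians of the 58 genes (-0.19) and of all tested genes (0.20).

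The genes were also steadier among libraries of a genotype than most genes. The median within-group SD of the log2 values was 0.716 for the 58 genes and 2.17 for all tested genes. Most of this gap was gone among abundant genes. Among genes whose mean was 500 normalized counts or more the medians were 0.627 for 42 of the 58 and 0.763 for 2522 genes. A value of 3 reads or fewer was treated as the floor of detection, a limit that covers counting error only, because no molecular identifiers are named for the reads. Of the 58 genes, 45 (77.6%) were above this floor in all 6 libraries, against 49.8% of all tested genes, and 13 were at it in at least 1.

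Together the 58 genes held 2.30% ± 0.597 (SD, n = 3) of the normalized counts of a library in *Trf1+/+* and 2.59% ± 1.34 (SD, n = 3) in *Trf1flox/flox* mice. The shares were 2.56%, 1.62% and 2.73% in *Trf1+/+* replicates 1 to 3 and 1.54%, 2.15% and 4.10% in *Trf1flox/flox* replicates 1 to 3, so the groups overlapped. *Gpx3* alone held between 31.7% and 60.3% of these counts. Without it the shares were 1.29% ± 0.332 and 1.33% ± 0.663 (SD, n = 3).

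**Figure D2:**
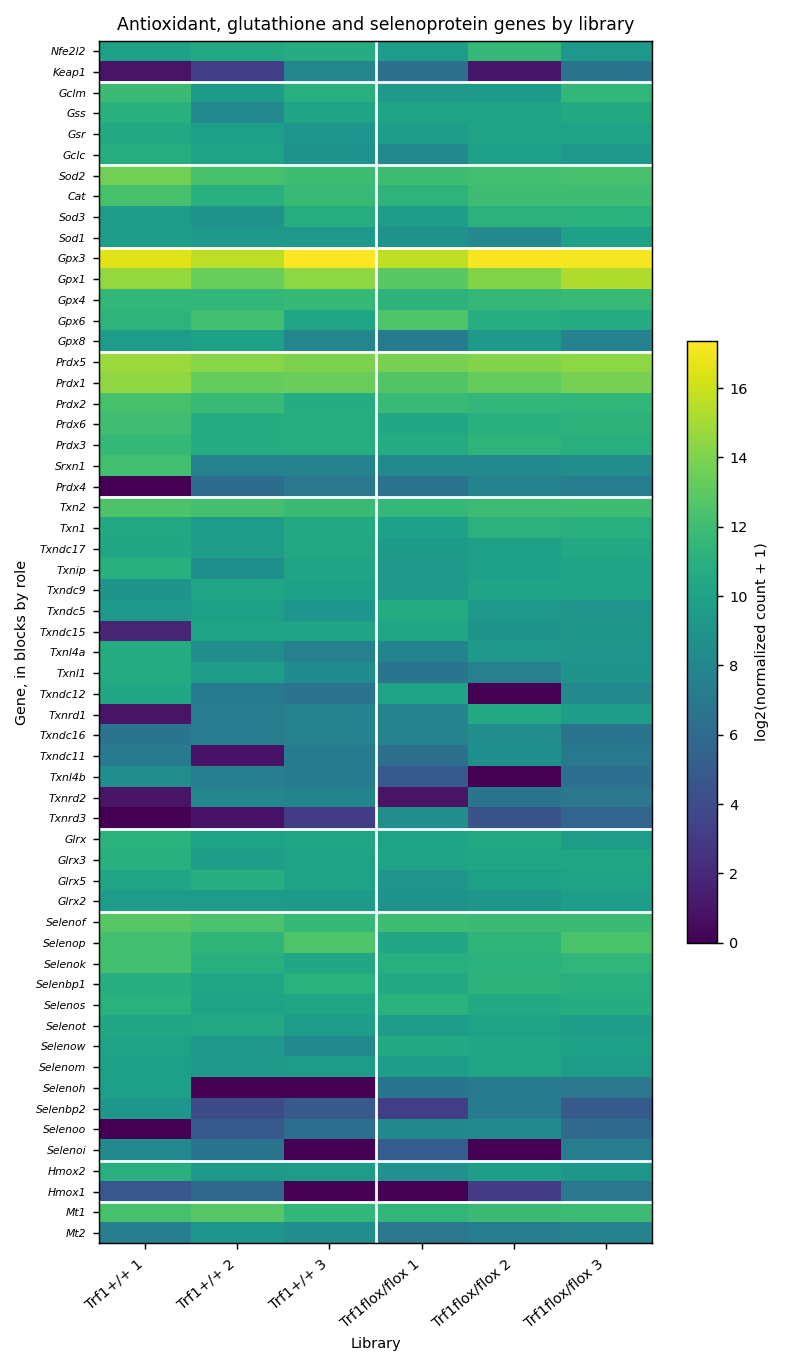
Colour gives the log2(normalized count + 1) of each of the 58 genes (rows, in blocks by role and ordered by mean level) in each of the 6 libraries (columns, 3 per genotype). *Gpx3*, *Gpx1*, *Prdx5* and *Prdx1* are the brightest rows in every library, and the darkest cells are scattered over libraries of both genotypes.

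The glutathione peroxidases, which reduce peroxides with glutathione, held the most abundant transcript. On the scale of normalized counts per kilobase of exon, *Gpx3* had a mean level of 60420, the highest of the 58 genes, followed by *Gpx1* with 14227, *Prdx5* with 8939, *Prdx1* with 3996 and *Mt1* with 3428. *Gpx3*, the secreted plasma enzyme, had 96860, 49909 and 166555 normalized counts across *Trf1+/+* libraries and 52215, 149831 and 141882 in *Trf1flox/flox* replicates 1 to 3. The groups overlapped, with the lowest values in *Trf1+/+* replicate 2 and *Trf1flox/flox* replicate 1. The log2 fold change was 0.15 (standard error 0.91). *Gpx1*, the cytosolic enzyme, had 24907, 10290 and 21765 normalized counts across *Trf1+/+* libraries and 7859, 17871 and 40315 in *Trf1flox/flox* libraries. Its lowest values were in the same pair of libraries, and its log2 fold change was 0.01 (standard error 0.96). The highest *Gpx1* value was in *Trf1flox/flox* replicate 3, where the sum of 5 erythroid markers was 52403 normalized counts against 121.1 to 10472 in the other 5 libraries. *Gpx1* is a gene of red cells too, and the part of these cells in its level was not tested.

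*Gpx4*, which reduces lipid peroxides within membranes and holds off ferroptosis, was among the steadiest of the genes. It had 2881, 2886 and 3175 normalized counts across *Trf1+/+* libraries and 2335, 2936 and 3517 in *Trf1flox/flox* libraries, a 1.51-fold range over all 6, and the groups overlapped. A pseudogene copy of *Gpx4* is annotated, so its reads may be shared. *Gpx6*, with the cysteine codon shown above, had 2534, 4429 and 1258 in *Trf1+/+* and 6054, 1793 and 1648 in *Trf1flox/flox* libraries. Its highest values were in *Trf1+/+* replicate 2 and *Trf1flox/flox* replicate 1, where *Gpx3* was lowest.

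The same pair of libraries stood apart in the summed tubule markers. The proximal tubule markers summed to 88195, 14443 and 58585 normalized counts across *Trf1+/+* libraries and 16397, 55105 and 105910 in *Trf1flox/flox* libraries, lowest in the same pair of libraries. The markers of the loop of Henle and distal tubule summed to 69799, 104313 and 66273 in *Trf1+/+* and 135062, 67458 and 48094 in *Trf1flox/flox* libraries, highest in that pair. Only *Umod*, the largest part of this sum in every library, was itself highest in the pair, at 51495 and 80777. In *Trf1+/+* replicate 2, *Slc12a1* had 11080, below 12964 in *Trf1flox/flox* replicate 2, and *Kcnj1* had 6672, below 8284 in *Trf1+/+* replicate 1. *Slc12a3* had 17956 in *Trf1flox/flox* replicate 1, below 18752 in *Trf1flox/flox* replicate 3. *Kap*, a tubule gene driven by androgens, held 30.8% to 81.6% of the proximal sum. Without it the sum of the other 7 markers lay between 5634 and 37094 normalized counts and was lowest in the same pair too. Of these 7, only *Slc22a6* and *Miox* were themselves lowest in the pair. Each of the rest was lower in a library outside the pair than in *Trf1flox/flox* replicate 1. *Cubn*, for example, had 471.7 there and 76.5 in *Trf1flox/flox* replicate 2. The pair holds 1 library of each genotype. Of the 4 loop and distal markers, 2 had positive and 2 negative log2 fold changes between genotypes. *Slc12a1*, the transporter of the loop of Henle, overlapped between genotypes, at 1.13 on the log2 scale (standard error 1.16). *Slc12a3*, the thiazide-sensitive transporter, was apart and lower, as were 3.33% of all tested genes, with 26373, 35066 and 25899 normalized counts under *Trf1+/+* and 17956, 14271 and 18752 under *Trf1flox/flox*. For 12 of the 58 genes (20.7%), *Cat*, *Gclm*, *Gpx1*, *Gpx3*, *Prdx3*, *Prdx6*, *Selenbp1*, *Selenbp2*, *Txn1*, *Txndc11*, *Txndc17* and *Txnip*, these were the 2 lowest libraries, against 6.31% of all tested genes. For 2 genes, *Gpx6* and *Txndc5*, they were the 2 highest (3.45%, against 8.23%). The lowest of the 6 values lay in 1 or the other of the pair for 35 of the 58 genes (60.3%), against 26.2% of all tested genes. This was seen after the values were known and is a description of 6 libraries. The part of the tubule cells in these levels was not tested.

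**Figure D3:**
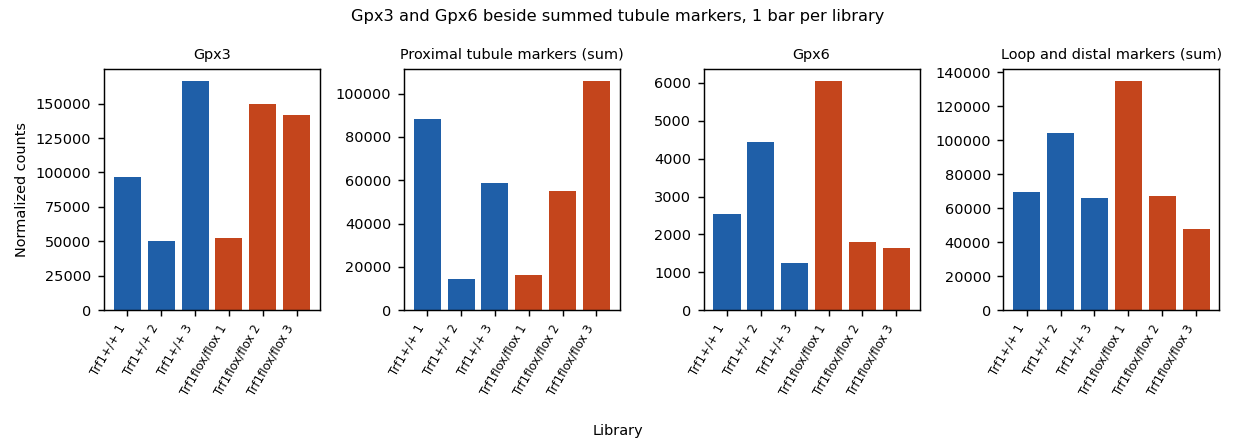
Bars give the normalized counts (y axes, each from 0) of *Gpx3*, the summed 8 proximal tubule markers, *Gpx6* and the summed 4 markers of the loop of Henle and distal tubule in each library (x axis, blue for *Trf1+/+* and orange for *Trf1flox/flox*). *Gpx3* and the proximal sum are lowest, and *Gpx6* and the loop and distal sum highest, in *Trf1+/+* replicate 2 and *Trf1flox/flox* replicate 1. Single markers of each sum did not all follow it.

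The thioredoxin system counted 16 genes, with 8 positive and 8 negative log2 fold changes. The groups did not overlap for 2 of them that were higher and 1 that was lower in *Trf1flox/flox* mice, where all tested genes had shares of 5.35% and 3.33%, so nothing particular to this class is read from them. *Txnrd3*, the thioredoxin and glutathione reductase known from the testis (ENSMUSG00000000811, chromosome 6, 89643988 to 89675529 on GRCm38), was measured at 0, 0.829 and 6.90 normalized counts across *Trf1+/+* libraries and 378.1, 20.8 and 50.3 in *Trf1flox/flox* replicates 1 to 3. The *Trf1+/+* values rest on 0, 1 and 7 reads. The means were 2.58 ± 3.77 and 149.7 ± 198.3 (SD, n = 3), and the *Trf1flox/flox* mean rested mostly on replicate 1. Its log2 fold change was 4.95 (standard error 1.41, unadjusted p = 0.0123, adjusted p = 0.654 from limma), and higher in 3 of 3 libraries. The adjusted p was 0.999 with edgeR and 0.296 with DESeq2.

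*Txnrd1*, the cytosolic reductase and an NRF2 target (ENSMUSG00000020250, chromosome 10, 82833951 to 82897712), had 0.891, 152.5 and 208.9 normalized counts across *Trf1+/+* libraries and 218.2, 1385 and 855.9 in *Trf1flox/flox* libraries. The groups did not overlap, but *Trf1flox/flox* replicate 1 lay just above *Trf1+/+* replicate 3. The means were 120.7 ± 107.6 and 819.6 ± 584.0 (SD, n = 3). Its log2 fold change of 4.02 (standard error 2.02, adjusted p = 0.996 from limma) rested in part on the library labelled *Trf1+/+* replicate 1, which held 1 read and in which 34.4% of all tested genes were at 3 reads or fewer. Without that library the log2 fold change was 1.83. *Txnrd2*, the mitochondrial reductase, had 0.891, 260.2 and 226.6 in *Trf1+/+* and 0.859, 99.5 and 116.5 in *Trf1flox/flox* libraries. It was at 1 read in a library of each genotype, and its log2 fold change of -0.79 was smaller than its standard error of 2.56. The sum of the 3 reductases was 1.78, 413.5 and 442.4 in *Trf1+/+* and 597.2, 1505 and 1023 in *Trf1flox/flox* libraries. It was formed after the values were seen. It restates those of *Txnrd1* and *Txnrd3*, and no share over all genes stands beside it.

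**Figure D4:**
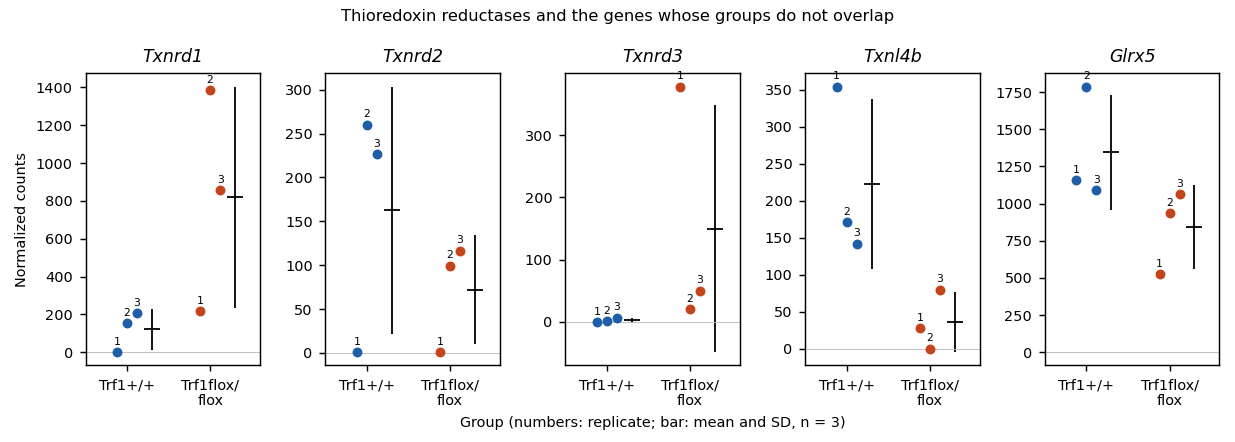
Points give the normalized counts (y axes) of the 3 thioredoxin reductases, *Txnl4b* and *Glrx5* in each library, by genotype (x axis) with the replicate number beside each point, and the black bar gives the mean and SD (n = 3). The *Trf1flox/flox* points lie above the *Trf1+/+* points for *Txnrd1* and *Txnrd3*, below them for *Txnl4b* and *Glrx5*, and among them for *Txnrd2*.

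*Txnl4b*, a thioredoxin-like protein of pre-mRNA splicing rather than of redox control, had 354.5, 170.7 and 141.9 normalized counts across *Trf1+/+* libraries and 27.5, 0 and 79.9 in *Trf1flox/flox* libraries. The means were 222.4 ± 115.2 and 35.8 ± 40.6 (SD, n = 3), and the log2 fold change was -3.96 (standard error 1.73, adjusted p = 0.996 from limma). *Trf1flox/flox* replicate 2, at 0 reads, gave the lowest value. Without it the log2 fold change was -2.10. The thioredoxins themselves, the small proteins that carry the electrons, overlapped between genotypes. *Txn2*, in mitochondria, had 5741, 4804 and 3644 in *Trf1+/+* and 2949, 3824 and 4059 in *Trf1flox/flox* libraries. *Txn1*, in the cytosol, had 1384, 730.0 and 1558 and 964.9, 2258 and 1947. *Txndc17*, a thioredoxin-like protein, had 1331, 803.7 and 1446 and 710.6, 895.0 and 1426. *Txndc12*, an oxidoreductase of the endoplasmic reticulum, was scattered within each genotype, with 1378, 145.8 and 97.5 in *Trf1+/+* and 1004, 0 and 279.8 in *Trf1flox/flox* libraries.

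The peroxiredoxins, which take electrons from thioredoxin to reduce peroxides, and sulfiredoxin, which repairs them, counted 1 positive and 6 negative log2 fold changes, and all 7 overlapped between genotypes. *Prdx5*, found in mitochondria and peroxisomes, had 26982, 19465 and 15597 normalized counts across *Trf1+/+* libraries and 13929, 17551 and 21203 in *Trf1flox/flox* libraries. *Prdx1*, in the cytosol, had 22562, 9787 and 10494 and 6293, 9521 and 14309. The 2 genes spanned a 1.94-fold and a 3.59-fold range. *Prdx2*, a cytosolic enzyme that is abundant in red cells, had 5134, 3324 and 1738 in *Trf1+/+* and 3257, 2846 and 2931 in *Trf1flox/flox* libraries. It was not highest in *Trf1flox/flox* replicate 3, where the erythroid markers were, and the part of red cells in its level was not tested. *Prdx3*, in mitochondria, lay between 1658 and 3003, and *Prdx6*, which also acts on phospholipids, between 1330 and 4124. *Prdx4*, the secretory pathway enzyme, was at 0 reads for the library labelled *Trf1+/+* replicate 1 and at 68.8 to 215.3 normalized counts in the other 5.

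*Srxn1*, the sulfiredoxin gene and an NRF2 target, stood out in 1 library. It had 4316, 198.9 and 217.8 normalized counts across *Trf1+/+* libraries and 281.0, 307.1 and 367.3 in *Trf1flox/flox* libraries. The library labelled *Trf1+/+* replicate 1 was far above the other 5, which lay close together. The log2 fold change was -0.85 (standard error 1.38). Without that library it was 0.60, and the remaining groups were apart and higher in *Trf1flox/flox*, as were 9.15% of all tested genes. The same library held the highest value of the 6 for 26 of the 58 genes (44.8%), against 27.4% of all tested genes, and the lowest for 7, although 38.2% of all tested genes were lowest there. *Trf1flox/flox* replicate 1 held the lowest value for 22 of the 58 (37.9%), against 12.6% of all tested genes.

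The NRF2 regulators among the genes did not differ beyond their spread. *Nfe2l2* had 953.9, 1516 and 1745 normalized counts across *Trf1+/+* libraries and 775.0, 3001 and 597.4 in *Trf1flox/flox* libraries, with the highest and the lowest value both in *Trf1flox/flox* mice. *Keap1*, which targets NRF2 for degradation, had 0.891, 8.29 and 237.5 in *Trf1+/+* and 82.5, 1.09 and 108.2 in *Trf1flox/flox* libraries. It was at 1 read in a library of each genotype, the library labelled *Trf1+/+* replicate 1 among them, so no order of the groups could be read. Of 12 further NRF2 regulators, 10 were tested and 0 had an unadjusted p under 0.05. The groups were apart for 1 that was higher and 1 that was lower in *Trf1flox/flox* mice, beside shares of 5.35% and 3.33% of all tested genes. Of these *Gsk3b*, a kinase that marks NRF2 for degradation, had 46.3, 92.8 and 79.8 in *Trf1+/+* and 159.0, 570.5 and 226.7 in *Trf1flox/flox* libraries, with the groups apart. *Cul3*, the ubiquitin ligase scaffold that KEAP1 works with, was apart in the other direction, with 2928, 1129 and 618.8 against 421.0, 74.3 and 328.7.

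Promoter sequence was read because NRF2 and metals act on several of these genes through short elements. RefSeq promoters (GRCm38.p6), from 250 bases before to 50 bases after each start, were matched for 51 of the 58 genes. The core of the antioxidant response element was searched on both strands as TGACNNNGC, where N is any base. It occurred in 10 of the 51 genes (19.6%) and in 14.0% of 27025 genes. The 10 were *Gclm*, *Mt2*, *Nfe2l2*, *Prdx1*, *Selenok*, *Sod1*, *Srxn1*, *Txndc11*, *Txndc5* and *Txnrd1*. The promoters of *Srxn1* (chr2:152105274-152105573) and of 1 of 3 starts of *Txnrd1* (chr10:82858956-82859255), both on the plus strand, are shown because both genes varied widely among libraries. The capitals mark the match, which is on the minus strand in both.
Srxn1: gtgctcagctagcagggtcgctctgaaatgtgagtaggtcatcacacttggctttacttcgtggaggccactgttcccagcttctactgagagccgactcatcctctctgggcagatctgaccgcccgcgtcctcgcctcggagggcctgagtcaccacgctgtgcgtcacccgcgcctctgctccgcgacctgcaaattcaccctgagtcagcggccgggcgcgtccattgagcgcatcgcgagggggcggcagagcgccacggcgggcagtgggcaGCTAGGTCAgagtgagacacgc
Txnrd1: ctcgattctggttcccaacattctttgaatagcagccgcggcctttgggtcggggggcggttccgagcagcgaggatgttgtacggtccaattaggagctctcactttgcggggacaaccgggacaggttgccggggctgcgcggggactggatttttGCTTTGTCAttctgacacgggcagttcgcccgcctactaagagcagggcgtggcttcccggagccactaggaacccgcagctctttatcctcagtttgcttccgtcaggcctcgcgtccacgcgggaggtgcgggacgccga
*Srxn1* was highest, and *Txnrd1* lowest, in the library labelled *Trf1+/+* replicate 1. A match is a description of the letters and does not show a bound site.

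Glutathione synthesis and recycling overlapped between genotypes for all 4 genes. *Gclc*, the catalytic subunit of the rate-limiting enzyme, had 1767, 1087 and 448.3 normalized counts across *Trf1+/+* libraries and 292.1, 971.5 and 611.9 in *Trf1flox/flox* libraries. *Gclm*, its modifier subunit, had 3683, 686.9 and 2003 and 644.4, 691.8 and 2843. Both were highest in the library labelled *Trf1+/+* replicate 1 and lowest in *Trf1flox/flox* replicate 1. *Gss*, glutathione synthetase, had 2084, 285.9 and 1096 in *Trf1+/+* and 1096, 1074 and 1452 in *Trf1flox/flox* libraries. *Gsr*, glutathione reductase, had 1384, 866.7 and 543.9 and 797.4, 1128 and 1041.

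Of the enzymes that act on superoxide and hydrogen peroxide, *Cat* had the highest mean level per kilobase of exon, 1319 normalized counts, followed by *Sod2* with 593.8, *Sod3* with 367.4 and *Sod1* with 157.8. *Sod2*, the mitochondrial dismutase, had 12974, 5084 and 4066 normalized counts across *Trf1+/+* libraries and 4026, 4542 and 4963 in *Trf1flox/flox* libraries. Apart from the library labelled *Trf1+/+* replicate 1, the values lay close together. *Cat*, the peroxisomal catalase, had 4938, 2089 and 3232 in *Trf1+/+* and 2441, 4038 and 3944 in *Trf1flox/flox* libraries. *Sod1*, the cytosolic dismutase, had 804.3, 635.5 and 608.0 and 472.6, 280.9 and 957.8. *Sod3*, the secreted dismutase, had 759.8, 463.2 and 1780 in *Trf1+/+* and 764.7, 2299 and 2174 in *Trf1flox/flox* libraries, giving a log2 fold change of 0.87 (standard error 0.94), which lay between 0.43 and 1.40 with a library left out. All 4 genes overlapped between the genotypes.

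The glutaredoxins, which use glutathione to reduce mixed disulfides or to carry iron-sulfur clusters, had negative log2 fold changes in 4 of 4 genes, each smaller than its standard error. *Glrx5*, the mitochondrial iron-sulfur cluster carrier (ENSMUSG00000021102, chromosome 12, 105032688 to 105042906), had 1156, 1787 and 1089 normalized counts across *Trf1+/+* libraries and 523.3, 934.4 and 1065 in *Trf1flox/flox* libraries. The groups did not overlap, but *Trf1flox/flox* replicate 3 and *Trf1+/+* replicate 3 lay next to each other. The means were 1344 ± 385.3 and 841.0 ± 282.8 (SD, n = 3), with a log2 fold change of -0.70 (standard error 0.78, adjusted p = 0.996 from limma). It was -0.39 without *Trf1flox/flox* replicate 1 and -0.42 with the upper quartile scaling. *Glrx*, the cytosolic glutaredoxin, had 2112, 1025 and 1175 in *Trf1+/+* and 1093, 1485 and 777.3 in *Trf1flox/flox* libraries. *Glrx3*, a cytosolic iron-sulfur carrier, had 2054, 834.4 and 1049 and 1108, 1256 and 1169.

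The genes named as selenoproteins counted 6 positive and 6 negative log2 fold changes among 12, but *Selenbp1* and *Selenbp2*, which encode selenium-binding proteins, held no in-frame TGA and are not selenoproteins. *Selenof*, of the endoplasmic reticulum, had 7188, 5304 and 3105 normalized counts across *Trf1+/+* libraries and 4050, 3661 and 3659 in *Trf1flox/flox* libraries. *Selenop*, the selenium carrier of plasma, whose coding sequence held 10 in-frame TGA codons, had 4570, 2663 and 6075 and 1354, 2646 and 5574. Its lowest value was in *Trf1flox/flox* replicate 1. *Selenok*, of the endoplasmic reticulum, lay between 1341 and 4608, and 6 pseudogene copies are annotated that may share its reads.

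*Selenow*, a small cytosolic selenoprotein, had 1092, 604.9 and 309.4 normalized counts across *Trf1+/+* libraries and 1528, 1155 and 954.4 in *Trf1flox/flox* libraries. The groups overlapped only through the library labelled *Trf1+/+* replicate 1, and the log2 fold change was 1.01 (standard error 0.84), or 0.55 without *Trf1+/+* replicate 3. *Selenoh*, a nuclear selenoprotein, was highest in that library by a wide margin. It had 896.0, 0 and 0 in *Trf1+/+* and 108.3, 139.9 and 119.2 in *Trf1flox/flox* libraries. The log2 fold change was 3.67 (standard error 2.74), while edgeR gave -1.09 and DESeq2 -1.24, and without that library limma gave 6.94. *Selenoo*, a mitochondrial selenoprotein with 26.7% of its exonic length shared with *Tubgcp6*, had 0, 27.3 and 74.9 in *Trf1+/+* and 275.8, 299.4 and 62.0 in *Trf1flox/flox* libraries, giving a log2 fold change of 3.75 (standard error 1.79). Leaving out the library labelled *Trf1+/+* replicate 1 gave 1.91, and edgeR gave 2.54. *Selenoi*, an enzyme of phospholipid synthesis, had 321.5, 102.7 and 0 and 32.7, 0 and 161.2, with a library of each genotype at 0.

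Split by the codon and not by name, the 16 genes with an in-frame TGA had 9 positive and 7 negative log2 fold changes with a median of 0.08, and the 42 without it had 14 and 28 with a median of -0.26. The medians of both lay below that of all tested genes. Genes for making and inserting selenocysteine were taken from a list of 9, all tested, and 5 had positive and 4 negative values. The groups were apart for 1 of them, and 1 had an unadjusted p under 0.05, beside 5.35% and 4.56% of all tested genes. *Sephs1*, a homolog of selenophosphate synthetase, had 1.78, 5.80 and 61.1 normalized counts across *Trf1+/+* libraries and 293.9, 790.1 and 162.6 in *Trf1flox/flox* libraries. The groups did not overlap, and the log2 fold change was 5.0 (standard error 1.40, unadjusted p = 0.0113, adjusted p = 0.615 from limma). *Sephs2*, the enzyme that makes the selenium donor, had 772.2, 440.8 and 842.5 in *Trf1+/+* and 658.2, 1300 and 1096 in *Trf1flox/flox* libraries, with the groups overlapping.

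The heme oxygenases, which break down heme, had mean levels of 393.1 (*Hmox2*) and 19.6 (*Hmox1*) normalized counts per kilobase of exon. *Hmox2*, the constitutive enzyme, had 1976, 651.3 and 763.7 normalized counts across *Trf1+/+* libraries and 441.6, 819.6 and 576.8 in *Trf1flox/flox* libraries, and 40.2% of its exonic length is shared with *Cdip1*. *Hmox1*, the inducible enzyme and an NRF2 target, had 24.9, 57.2 and 0 and 0, 7.65 and 115.8. It was listed at 0 in a library of each genotype and was highest in *Trf1flox/flox* replicate 3. The summed erythroid markers were highest there too, at 52403 normalized counts. Of 5 immune markers 2 were listed, and their sum was highest there as well, at 2513, all of it *Cd74*. The erythroid sum was next highest in *Trf1+/+* replicate 3, at 10472, where *Hmox1* was at 0. The part of these cells in its level was not tested.

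The metallothioneins, small cysteine-rich proteins that bind zinc and copper, had lower means in *Trf1flox/flox* mice without passing the test. *Mt1* had 5115, 7430 and 2872 normalized counts across *Trf1+/+* libraries and 2737, 3636 and 3837 in *Trf1flox/flox* libraries, and the groups overlapped. *Mt2* had 170.1, 551.0 and 379.4 and 116.0, 151.9 and 205.4, with a log2 fold change of -1.09 (standard error 0.84), or -0.72 without *Trf1+/+* replicate 2. Of the exonic length of *Mt2*, 73.5% is shared with *Gm45774*, so its reads may not all be its own. The core of the metal response element was searched as TGCNCNC on both strands, a looser form than the published element, and 3 or more matches occurred in 8 of the 51 genes (15.7%) and in 8.04% of all genes. *Mt2* held 6 matches and *Mt1* 3. The *Mt2* promoter (chr8:94172368-94172667, plus strand) is shown as the one with the most matches of the metallothioneins, with the matches in capitals.
Mt2: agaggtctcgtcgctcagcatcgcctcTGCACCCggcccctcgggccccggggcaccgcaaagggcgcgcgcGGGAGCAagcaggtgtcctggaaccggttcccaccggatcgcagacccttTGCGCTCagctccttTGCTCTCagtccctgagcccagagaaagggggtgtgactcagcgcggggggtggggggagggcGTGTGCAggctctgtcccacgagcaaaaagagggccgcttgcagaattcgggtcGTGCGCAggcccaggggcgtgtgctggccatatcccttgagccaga
The 2 genes shared their highest library, *Trf1+/+* replicate 2.

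With limma and edgeR the rest of the pathway gave no call after adjustment over all genes. DESeq2, which called 58 of all genes, was not read for these lists, and the values below are from limma. Of 23 NRF2 targets outside the rule, 17 were tested, 12 with positive and 5 with negative log2 fold changes, and 0 had an unadjusted p under 0.05. *Osgin1* and *Pgd*, 2 of the 17, were apart and higher in *Trf1flox/flox* mice, as were 5.35% of all tested genes. *Pgd*, an enzyme of the pentose phosphate pathway that makes NADPH, had 39.2, 121.0 and 114.3 in *Trf1+/+* and 329.1, 178.1 and 231.5 normalized counts in *Trf1flox/flox* libraries. Of 19 glutathione S-transferases tested, 13 were positive, and 1, *Gsto2*, had an unadjusted p under 0.05 (0.000136, adjusted p = 0.11 from limma), a threshold that 4.56% of all tested genes passed. *Gsto2* had no reads under *Trf1+/+*, and its *Trf1flox/flox* values were 54.1, 86.3 and 73.7 normalized counts. It passed the filter only through these *Trf1flox/flox* libraries, so its groups were bound to be apart and its p-value adds no support for a difference. Of 12 genes of glutathione turnover tested, *Ggt1*, which breaks down extracellular glutathione at the brush border, was the 1 gene apart and higher (5.35% of all tested genes were), with 1334, 935.4 and 1966 in *Trf1+/+* and 2055, 2830 and 2367 in *Trf1flox/flox* libraries. The remaining lists held 3 tested selenoproteins with other symbols, 1 receptor of selenoprotein P, 6 methionine sulfoxide reductases and sestrins, 5 superoxide sources and chaperones, and 3 regulators of the metallothioneins. In each of these lists 0 genes had an unadjusted p under 0.05 from limma, and 0 had groups that did not overlap.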

How the data were processed

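RNA of sorted kidney cells was sequenced in 6 libraries, 3 per genotype. Per the study's methods, the authors copied it with oligo(dT) priming and template switching and PCR, aligned reads with TopHat2 (2.0.10) and counted them with HTSeq (0.6.1). The methods name GRCm38 and the submitters' processing notes GRCm39. The deposited table holds normalized counts, a signal in which the authors divided each gene's reads by 1 size factor per library. All values (100%) were whole reads within 0.01, and these reads were recovered. Depth was 10263382 to 12248797 reads per library.

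Here genes that reached 10 normalized counts in 3 or more libraries were tested with limma (3.58.1, R 4.3.3) on log2(normalized count + 1), with Benjamini-Hochberg adjustment over 9966 genes. A gene under 10 in all libraries of 1 genotype could pass this filter only if all libraries of the other reached 10, so its groups were apart by selection. On the log2 scale the fitted change of a low gene can be smaller or larger than with a count model. For *Txnrd3* it was 4.95, against 5.78 with edgeR. For *Txnrd1* it was 4.02, against 2.69, and for *Txnl4b* -3.96, against -2.46. The study gives 3 mice per genotype, while the labels name no mouse for a library, and p-values measure the spread between these libraries. An exact test of 3 against 3 libraries cannot go below p = 0.1 and was not used. Alternatives were edgeR (4.0.16), DESeq2 (1.42.0), other pseudocounts, filters and scaling, limma with a trend, and leaving out each library. Overlap of exons, coding sequences and gene lengths came from GENCODE M21. The kit does not mark strand, so overlapping genes are uncertain. The members and lists were chosen with earlier results of these data known. Named were genes with an unadjusted p under 0.05 or groups apart, the 3 most abundant of each role, the core enzymes and regulators of each system, and genes at 0 in a library but above 100 in another of its genotype. From other lists at most 4 genes with an unadjusted p under 0.05 or groups apart were named. *Gpx6*, *Selenoh*, *Selenoo*, *Sephs2* and the genes listed for their library order were named after their values were seen.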

Additional observations from a re-analysis of the deposited data

How the results depend on the processing

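Under all 14 alternatives 0 of the 58 genes had an adjusted p under 0.05. Genes without a p under an alternative, such as *Srxn1*, *Selenoh* and *Selenbp2* with DESeq2, were counted as not passing. At an unadjusted p under 0.05 there were 1 in the main fit, 2 with a pseudocount of 5, with DESeq2 and with a trend in limma, 0 with the filter of 50 and with edgeR, and 1 to 2 with a library left out. DESeq2 called 58 of all genes, where limma and edgeR called 0. The median log2 fold change of the 58 genes lay between -0.32 and 0.15 with a library left out, highest without the library labelled *Trf1+/+* replicate 1. The number of genes whose groups did not overlap was 4 with all libraries and 5 to 16 with a library left out, as fewer libraries overlap less often. It was 12 without *Trf1+/+* replicate 1, with 8 higher and 4 lower, where 9.15% of all tested genes were apart and higher and 8.74% lower. It was 16 without *Trf1+/+* replicate 3, 13 without *Trf1flox/flox* replicate 3 and 7 without *Trf1flox/flox* replicate 1 or 2. For these the shares of all tested genes were not computed, so nothing particular to the 58 genes is read from the counts. Of 13 genes followed, 8 kept their direction under each alternative that gave them a value, and *Txnrd3* was not tested with the filter of 50. With a library left out, the log2 fold change lay between -3.12 and 1.17 for *Txnrd2*, between -1.61 and 0.60 for *Srxn1*, between -0.29 and 0.65 for *Gpx3* and between -0.58 and 0.60 for *Gpx1*. It lay between 3.78 and 5.84 for *Txnrd3*, 1.83 and 5.23 for *Txnrd1*, -5.27 and -2.10 for *Txnl4b* and -0.91 and -0.39 for *Glrx5*. *Selenoh* had -1.09 with edgeR and -1.24 with DESeq2. The causes were not tested. Fitted values of genes at the floor in a library depend on the pseudocount.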
